A study of Mus musculus with 10 samples.

Results

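The 10 genes described here belong to interleukin-1 (IL-1) signalling, NF-kB control, cell adhesion and macrophage growth, and they were compared between CD90- and CD90+ myCAFs, the myofibroblastic cancer-associated fibroblasts of mouse pancreatic tumours. They were chosen by name and are the receptors Il1r1, Il1rap and Il1rl1, the ligand Il33, the NF-kB genes Nfkb1, Nfkbia and Tnfaip3, the adhesion genes Icam1 and Vcam1, and the growth factor gene Csf1. These are 10 of the 48471 genes to which the estimated counts were summed. There were 5 RNA-seq libraries of CD90- myCAFs and 5 of CD90+ myCAFs. Both fractions were flow-sorted from the same C57BL/6J tumours, which grew in the pancreas from transplanted KPC T-LOH organoids, and the study's design text calls the mice male. Each of the 5 tumour pools gave 1 library of each fraction, and by the animal numbers in the titles pools 1 to 5 held 4, 1, 2, 3 and 1 animals, so 3 of the pools mix animals. The titles name 11 animals and the design text 5 mice, so n is given as pools. The labels used here state neither the age of the mice, nor how myCAFs were gated beyond CD90, nor whether the organoids came from 1 line.

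IL-1 and IL-33 are cytokines of 1 family. IL-1 binds the receptor encoded by Il1r1 and IL-33 the receptor ST2 encoded by Il1rl1, and both receptors signal only after pairing with the accessory protein encoded by Il1rap. The paired receptors recruit the adaptor MYD88 and activate the transcription factor NF-kB, which is held in the cytoplasm by inhibitors of the IkB family. Nfkb1 encodes an NF-kB subunit, Nfkbia the inhibitor IkB-alpha and Tnfaip3 the ubiquitin-editing protein A20 that damps the pathway. Nfkbia, Tnfaip3, Icam1, Vcam1 and Csf1 are known NF-kB targets in many cell types. In pancreatic tumours, IL-1 from cancer cells is known to act on fibroblasts, and inflammatory rather than myofibroblastic fibroblasts are known for this response.

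The start regions of the members are given first, because the Il33 transcripts described below begin at different first exons and because Nfkbia, Tnfaip3 and Csf1 carry letters that NF-kB is known to bind. RefSeq start regions on GRCm38.p6 were at hand for 8 of the 10 genes, in 12 windows of 250 bases upstream of a gene start, and Vcam1 and Nfkb1 had none. The windows were searched on both strands for the NF-kB consensus and for TATAAA, a common core promoter motif. The first occurs in 7.25% and the second in 12.4% of 32851 such windows over all genes. Capitals mark the matches, and each sequence runs 5' to 3' on the gene's own strand up to the base before the start. Both Il33 windows hold TATAAA and neither holds the NF-kB consensus.
Il33 upstream start, chr19:29924863-29925112, + strand: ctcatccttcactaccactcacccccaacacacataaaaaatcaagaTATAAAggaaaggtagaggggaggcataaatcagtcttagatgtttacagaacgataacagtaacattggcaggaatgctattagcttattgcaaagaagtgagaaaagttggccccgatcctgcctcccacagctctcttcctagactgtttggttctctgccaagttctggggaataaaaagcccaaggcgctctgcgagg
Il33 downstream start, chr19:29945540-29945789, + strand: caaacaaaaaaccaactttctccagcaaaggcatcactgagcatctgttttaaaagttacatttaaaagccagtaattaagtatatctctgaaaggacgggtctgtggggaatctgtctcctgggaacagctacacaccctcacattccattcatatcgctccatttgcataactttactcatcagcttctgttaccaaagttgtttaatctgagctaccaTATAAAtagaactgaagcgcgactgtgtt
Nfkbia, chr12:55492648-55492897, - strand: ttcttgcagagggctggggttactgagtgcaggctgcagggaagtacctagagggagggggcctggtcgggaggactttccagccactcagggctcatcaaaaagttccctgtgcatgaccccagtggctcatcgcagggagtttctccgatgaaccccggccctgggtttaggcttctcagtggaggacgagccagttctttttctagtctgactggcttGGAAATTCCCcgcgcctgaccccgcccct
Tnfaip3, chr10:19015411-19015660, - strand: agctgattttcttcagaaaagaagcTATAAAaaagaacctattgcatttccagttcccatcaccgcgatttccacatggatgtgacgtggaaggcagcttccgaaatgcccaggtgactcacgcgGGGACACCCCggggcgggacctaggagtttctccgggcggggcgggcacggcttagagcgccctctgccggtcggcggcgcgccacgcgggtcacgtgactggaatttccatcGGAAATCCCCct
Csf1, chr3:107760470-107760719, - strand: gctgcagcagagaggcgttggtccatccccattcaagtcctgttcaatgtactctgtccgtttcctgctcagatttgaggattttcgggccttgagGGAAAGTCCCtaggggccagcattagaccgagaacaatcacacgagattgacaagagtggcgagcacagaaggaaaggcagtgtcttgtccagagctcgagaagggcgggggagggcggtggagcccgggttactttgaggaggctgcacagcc

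In the downstream Il33 window TATAAA begins 29 bases before the start, whereas in the upstream window it begins 203 bases before it. The NF-kB match of Nfkbia begins 29 bases and that of Csf1 154 bases before the start. Tnfaip3 has 3 matches, where a stretch that fits on both strands is counted on each. Together with 1 of the Il1r1 windows, 4 of the 12 windows hold a match. A match here is a run of letters and no record of binding.

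Libraries held 33.3 to 47.7 M estimated counts (M, mega) in CD90- and 11.7 to 38.2 M in CD90+ cells, with 3.71 to 19.8 M and 4.57 to 28.5 M of them on protein-coding genes of the nucleus. Mitochondrial ribosomal RNA took 35.6% to 84.4% of the gene counts in CD90- libraries and 10.5% to 44.8% in CD90+ libraries, and was higher in CD90- in 5 of 5 pools. Levels below are counts per M counts (CPM) after TMM scaling, which evens out differences in library composition. Thy1, which encodes CD90, lay at 2.07 to 16.0 CPM in CD90- and 39.2 to 117 CPM in CD90+ libraries. The summed level of 9 fibroblast markers was 4052 to 20455 CPM in CD90- and 32400 to 53864 CPM in CD90+ libraries. The collagen genes Col1a1, Col1a2 and Col3a1 made up most of this sum in every library. Fibroblast genes were thus present in every library, with less of them in CD90- in 5 of 5 pools. The sum of 10 cancer epithelial markers was 717 to 2907 CPM in CD90- and 180 to 1612 CPM in CD90+ libraries, higher in CD90- in 5 of 5 pools. In such bulk samples, fewer cells of a type and less RNA per cell cannot be told apart.

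Of the 10 genes, 5 fell in CD90- cells (Il1r1, Il1rap, Nfkb1, Vcam1 and Csf1) and none rose. The count of genes that rose was 0 in edgeR's quasi-likelihood test, 0 at an unadjusted p under 0.05 and 0 in DESeq2. Of the 15378 genes tested in the same fit, 7.05% were called lower, 5.83% higher and so 12.9% either way at a Benjamini-Hochberg adjusted p under 0.05, with the pool as a block. The log2 fold (CD90- over CD90+) had a median of -0.96 over the 10 genes and of 0.04 over all tested genes, and it was negative for 9 of the 10. For each of the 10 genes the ranges of the fractions overlapped, so the calls rest on the difference within pools. When the mitochondrial ribosomal RNA share was added to the fit as a covariate, no gene of all those tested was called. The share was higher in CD90- in every pool, so this fit can hardly separate it from the fraction. In this fit the log2 fold was -1.89 for Csf1, -1.69 for Il1r1, -0.72 for Vcam1, -0.44 for Nfkb1 and 0.78 for Il1rap. The part of this share in the results below was not tested further.

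**Figure D1:**
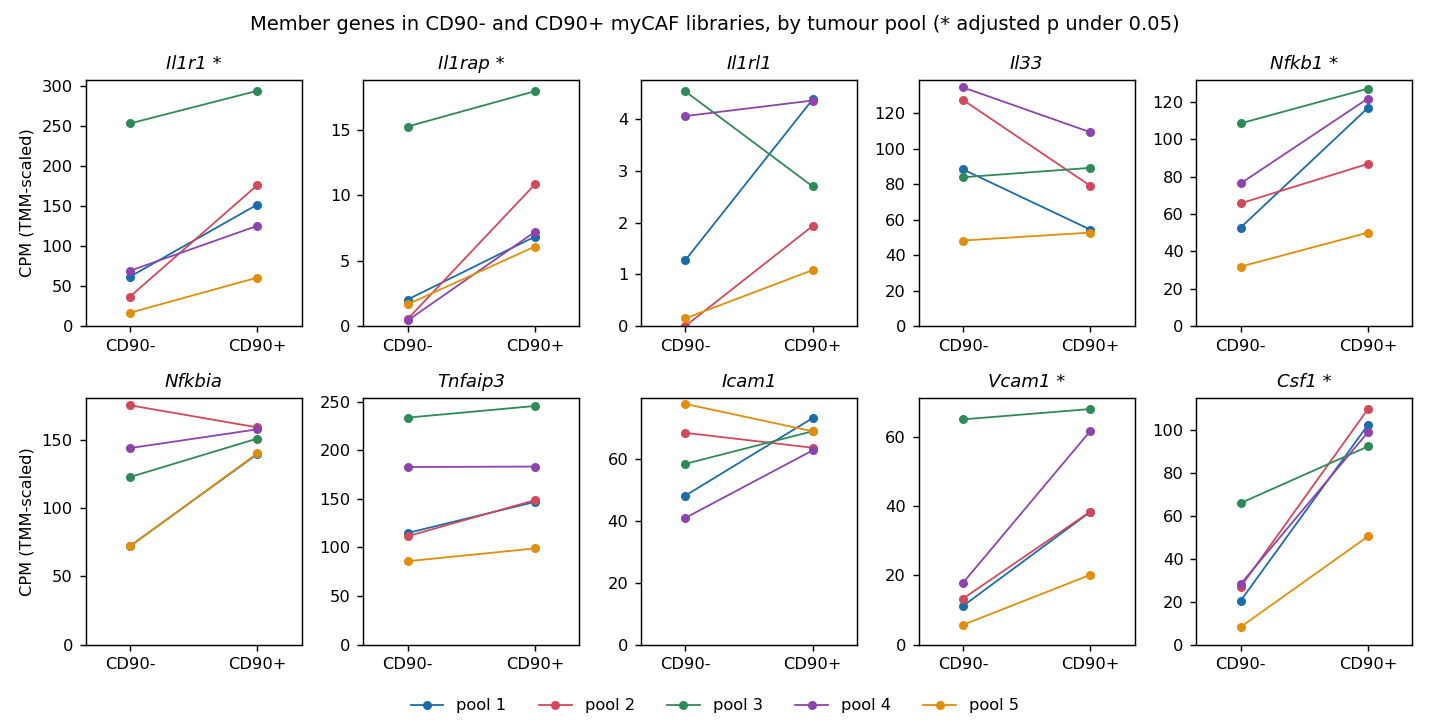
Level of each of the 10 genes in CPM after TMM scaling (linear axes from 0, with a scale for each gene) in the 5 CD90- libraries, left, and the 5 CD90+ libraries, right, with lines joining the libraries of 1 pool and an asterisk for an edgeR adjusted p under 0.05. Csf1 lies at 8.20 to 66.0 CPM in CD90- and 50.4 to 110 CPM in CD90+ libraries, while Tnfaip3 lies at 85.8 to 234 and 98.9 to 246 CPM in CD90- and CD90+ libraries.

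Il1r1 (ENSMUSG00000026072, chromosome 1), the signalling IL-1 receptor, was the highest of the receptor genes. It had 61.7, 36.8, 253, 69.1 and 16.6 CPM in CD90- libraries of pools 1 to 5, against 152, 176, 294, 125 and 60.5 CPM in CD90+ libraries. CD90- was lower in every pool, by the least in pool 3, whose CD90- library stood far above the other CD90- libraries. The fall was 2.46-fold, with a log2 fold of -1.30 ± 0.28 (SE) and an edgeR adjusted p of 0.0191. Means were 87.5 ± 95.0 CPM in CD90- and 162 ± 85.8 CPM in CD90+ cells (SD, n = 5 each). Without pool 3 the log2 fold was -1.57 (edgeR adjusted p = 0.0022), and the call was lost without pool 1 (0.0792), without pool 5 (0.0573), without the block (0.478) and without pools 4 and 5 (0.134), with adjusted p between 3.2e-10 and 0.751 over 16 other settings. Its main transcript, Il1r1-202, made up 81.6% ± 11.4 of the gene's counts in CD90- and 75.1% ± 5.25 in CD90+ cells, a difference within the spread (exact paired permutation p = 0.5, two-sided, n = 5 pools).

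Il1rap (ENSMUSG00000022514, chromosome 16), the shared co-receptor, was low in both fractions and showed the largest fold of the 5 genes that fell. It had 2.03, 0.536, 15.3, 0.427 and 1.66 CPM in CD90- libraries of pools 1 to 5, against 6.85, 10.9, 18.0, 7.21 and 6.09 CPM in CD90+ libraries. Outside pool 3 each CD90- library lay below every CD90+ library. The fall was 4.99-fold, with a log2 fold of -2.32 ± 0.62 (SE) and an edgeR adjusted p of 0.0387. The CD90- libraries rest on 4 to 772 estimated counts each. The call was lost without pool 1, 2, 4 or 5 (edgeR adjusted p 0.111, 0.0847, 0.109 and 0.0865), without the block (0.430), without pools 4 and 5 (0.232), with a transcript length offset (0.111) and in limma-voom (0.188), with a range of 4.4e-06 to 0.913 over 16 settings. Without pool 3 the log2 fold was -2.93 (edgeR adjusted p = 0.0181).

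Il1rl1 (ENSMUSG00000026069, chromosome 1), which encodes the IL-33 receptor ST2, did not pass the test. It had 1.27, 0, 4.53, 4.06 and 0.148 CPM in CD90- libraries of pools 1 to 5, against 4.38, 1.93, 2.70, 4.36 and 1.08 CPM in CD90+ libraries. CD90- was lower in 4 pools and higher in pool 3, with a log2 fold of -1.67 ± 1.07 (SE) and an edgeR adjusted p of 0.368. The values rest on 0 to 229 counts in CD90- and 11 to 179 counts in CD90+ libraries. Transcripts for the shorter form of 337 amino acids, which lacks the membrane part and is known as a soluble decoy, held 168 estimated counts in all CD90- and 336 in all CD90+ libraries. Those for the membrane form of 567 amino acids held 129 and 163. Mast cells are known for high ST2. The 7 mast cell markers summed to 0.214 to 4.10 CPM in CD90- and 0 to 0.467 CPM in CD90+ libraries, higher in CD90- in 5 of 5 pools. Cpa3 and Fcer1a were at 0 in all 10 libraries, while Mcpt4 reached 3.40 CPM in the CD90- library of pool 5. The part of mast cells in the Il1rl1 values was not tested.

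Il33 (ENSMUSG00000024810, chromosome 19), the ligand of ST2 and a nuclear alarm cytokine, did not pass the test as a whole gene. It had 88.3, 127, 83.8, 134 and 48.2 CPM in CD90- libraries of pools 1 to 5, against 54.3, 79.0, 89.1, 109 and 52.7 CPM in CD90+ libraries. CD90- was higher in 3 pools and lower in 2, with a log2 fold of 0.30 ± 0.17 (SE) and an edgeR adjusted p of 0.311. The sign turned in a fit with a transcript length offset, to -0.29, and with the mitochondrial ribosomal RNA share as a covariate, to -0.20.

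Below the gene total, the 2 main Il33 transcripts moved in opposite directions in every pool. Il33-202 begins at base 29925114 of chromosome 19 (GRCm38), and Il33-201 begins 20676 bases further downstream at base 29945790. Both encode 266 amino acids and share 6 identical exons, but their first exons of 48 and 69 bases differ, which are the starts behind the 2 Il33 windows printed above. Il33-201 had 68.2, 74.7, 25.6, 107 and 23.3 CPM in CD90- libraries, against 17.6, 13.1, 7.75, 27.3 and 9.89 CPM in CD90+ libraries. Its level was higher in CD90- in 5 of 5 pools, and only the CD90- libraries of pools 3 and 5 lay within the CD90+ range. Il33-202 had 7.76, 35.7, 44.7, 7.44 and 16.2 CPM in CD90- libraries, against 23.4, 47.8, 65.2, 63.1 and 21.1 CPM in CD90+ libraries. Together with Il33-204 and Il33-205, whose first exons start close to that of Il33-202, the upstream start gave 36.3 ± 17.7 CPM in CD90- and 61.5 ± 21 CPM in CD90+ cells (SD, n = 5), lower in 5 of 5 pools. Within this sum Il33-204 was also lower, with 4.08 ± 2.34 CPM in CD90- and 10.2 ± 3.78 CPM in CD90+ cells. Il33-205 went the other way, with 9.87 ± 3.29 CPM in CD90- and 7.21 ± 2.45 CPM in CD90+ cells, higher in CD90- in 4 of 5 pools.

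In a fit over 35891 transcripts, 0.0529% were called, and none of the 38 tested transcripts of the 10 genes was among them. This fit was added after the data were seen. Il33-201 had a log2 fold of 1.87 ± 0.21 (SE) there and missed the threshold with an edgeR adjusted p of 0.0555, and over its other settings the adjusted p was 0.0519 to 0.463. Il33-202 had a log2 fold of -1.17 ± 0.46 (SE) and an edgeR adjusted p of 0.550. Over all transcripts 3035 had an unadjusted p under 0.05. The share of Il33-202 in the gene's counts was 25.8% ± 19.5 in CD90- and 54.9% ± 13.5 in CD90+ cells (SD, n = 5), lower by 29.1 percentage points and in 5 of 5 pools. The exact paired permutation test gave p = 0.062, the smallest that 5 pools allow (two-sided), and 0.375 after Benjamini-Hochberg adjustment over the 6 transcript shares tested. The share of Il33-201, examined after the data were seen, was 58.9% ± 20.5 in CD90- and 20.3% ± 8.94 in CD90+ cells, higher in 5 of 5 pools (exact p = 0.062, the same smallest value). The division of reads between the transcripts rests on the few bases that distinguish them, and the files used hold no measure of its uncertainty.

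**Figure D2:**
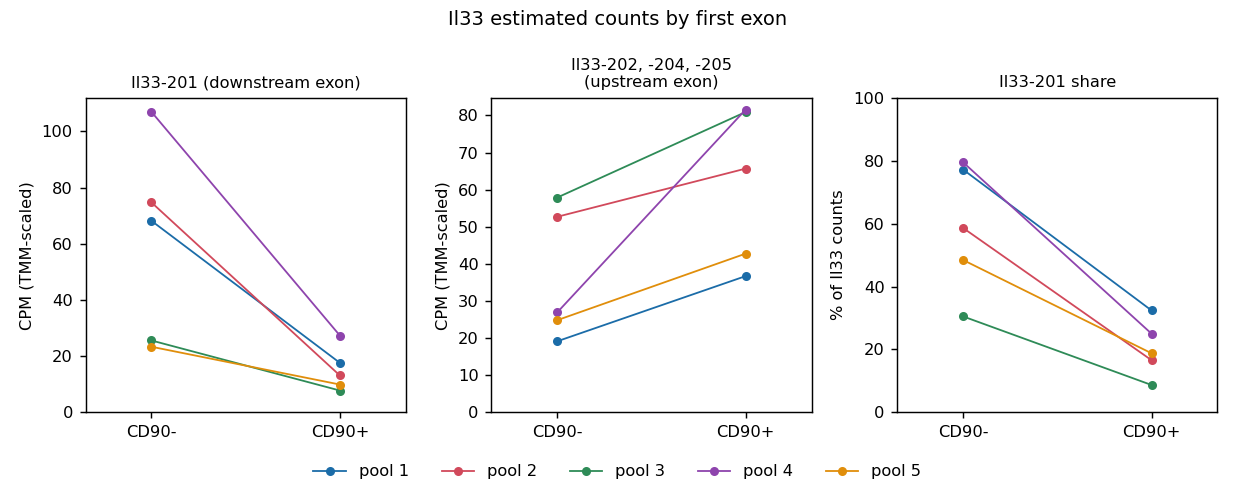
Il33 transcripts that begin at the downstream first exon (Il33-201) and at the upstream first exon (Il33-202, Il33-204 and Il33-205), in CPM after TMM scaling, and the share of Il33-201 in the gene's counts in percent, with the CD90- libraries left of the CD90+ libraries and lines joining the libraries of 1 pool. The downstream start is higher in CD90- in 5 of 5 pools (means of 59.7 CPM in CD90- and 15.1 CPM in CD90+) and the summed upstream start lower in 5 of 5 (36.3 CPM in CD90- and 61.5 CPM in CD90+).

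Of the NF-kB genes, Nfkb1 (ENSMUSG00000028163, chromosome 3), which encodes the p105 precursor of the p50 subunit, fell as a gene total. It had 52.7, 65.7, 109, 76.4 and 31.8 CPM in CD90- libraries of pools 1 to 5, against 117, 86.8, 127, 122 and 50.004 CPM in CD90+ libraries. CD90- was lower in every pool, by 1.54-fold, with a log2 fold of -0.62 ± 0.16 (SE) and an edgeR adjusted p of 0.0323. The call was lost without pool 1, 2, 4 or 5 (edgeR adjusted p 0.151, 0.0585, 0.0791 and 0.0654), with a length offset (0.0746), without the block (0.319) and without pools 4 and 5 (0.185), with a range of 0.0095 to 0.843 over 16 settings. Transcripts annotated as retaining an intron made up 65.0% ± 9.46 of the counts of Nfkb1 in CD90- and 76.5% ± 5.24 in CD90+ cells (SD, n = 5). Most counts of this gene therefore lay on transcripts that are not annotated as coding. The largest of them, Nfkb1-204, had 30.8 ± 15.7 CPM in CD90- and 52.8 ± 17.0 CPM in CD90+ cells. Among the coding transcripts, Nfkb1-206 had 13.9 ± 2.78 CPM in CD90- and 16.3 ± 3.18 CPM in CD90+ cells, higher in CD90- in 1 pool. Nfkb1-201 had 4.04 ± 4.59 and 3.50 ± 5.29 CPM, also higher in CD90- in 1 pool. Nfkb1-203 had 3.42 ± 2.33 and 1.49 ± 1.41 CPM, higher in CD90- in 4 pools. Their log2 folds in the transcript fit were -0.24 ± 0.27, 0.83 ± 2.20 and 2.11 ± 1.62 (SE), and none was called. With errors of this size, these values cannot show whether the coding transcripts shared the fall of the gene total.

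Nfkbia (ENSMUSG00000021025, chromosome 12), the gene of IkB-alpha, did not pass the test. It had 72.2, 175, 123, 144 and 71.9 CPM in CD90- libraries of pools 1 to 5, against 140, 159, 151, 158 and 140 CPM in CD90+ libraries. The CD90+ libraries lay close together while the CD90- libraries of pools 1 and 5 were near 72 CPM, with a log2 fold of -0.44 ± 0.19 (SE) and an edgeR adjusted p of 0.166. Tnfaip3 (ENSMUSG00000019850, chromosome 10), the gene of A20, had 115, 112, 234, 183 and 85.8 CPM in CD90- libraries, against 147, 149, 246, 183 and 98.9 CPM in CD90+ libraries. Its values followed each other from pool to pool in both fractions. CD90- was lower in 5 of 5 pools, though nearly level in pool 4. The log2 fold was -0.21 ± 0.13 (SE) with an edgeR adjusted p of 0.353.

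The adhesion genes differed in outcome. Vcam1 (ENSMUSG00000027962, chromosome 3), whose protein binds leukocyte integrins, had 11.2, 13.3, 65.1, 17.8 and 5.69 CPM in CD90- libraries of pools 1 to 5, against 38.3, 38.4, 68.1, 61.7 and 20.1 CPM in CD90+ libraries. It fell in CD90- cells by 2.65-fold, with a log2 fold of -1.40 ± 0.27 (SE) and an edgeR adjusted p of 0.0096, and was lower in every pool. The pool 3 libraries were nearly level, and without them the log2 fold was -1.73 (edgeR adjusted p = 0.00062). The call was lost without pool 1 (0.0558), without the block (0.369) and without pools 4 and 5 (0.140), with adjusted p between 4.3e-09 and 0.846 over 16 settings. Icam1 (ENSMUSG00000037405, chromosome 9), which binds the integrin LFA-1 on leukocytes, had 48.2, 68.6, 58.5, 41.0 and 77.9 CPM in CD90- libraries, against 73.3, 63.7, 69.1, 62.9 and 69.1 CPM in CD90+ libraries. CD90- was lower in 3 pools and higher in pools 2 and 5, with a log2 fold of -0.24 ± 0.17 (SE) and an edgeR adjusted p of 0.424. Whether Vcam1 and Icam1 differ from each other in their response was not tested.

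Csf1 (ENSMUSG00000014599, chromosome 3), the growth factor of macrophages, had the smallest p of the 10 genes. It had 20.4, 26.9, 66.0, 28.2 and 8.20 CPM in CD90- libraries of pools 1 to 5, against 102, 110, 92.4, 99.0 and 50.4 CPM in CD90+ libraries. Outside pool 3 every CD90- library lay below every CD90+ library. Means were 29.9 ± 21.6 CPM in CD90- and 90.8 ± 23.4 CPM in CD90+ cells (SD, n = 5), a 3.63-fold fall with a log2 fold of -1.86 ± 0.29 (SE) and an edgeR adjusted p of 0.0057. It was the only one of the 10 genes whose call held with each single pool left out, and it was lost without the block (edgeR adjusted p = 0.0560) and without pools 4 and 5 (0.0757), with a range of 2.7e-18 to 0.751 over 16 settings. Csf1r, the receptor of its product, had 4.605 ± 2.61 CPM in CD90- and 4.26 ± 2.74 CPM in CD90+ cells (SD, n = 5; log2 fold 0.06, edgeR adjusted p = 0.965).

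**Figure D3:**
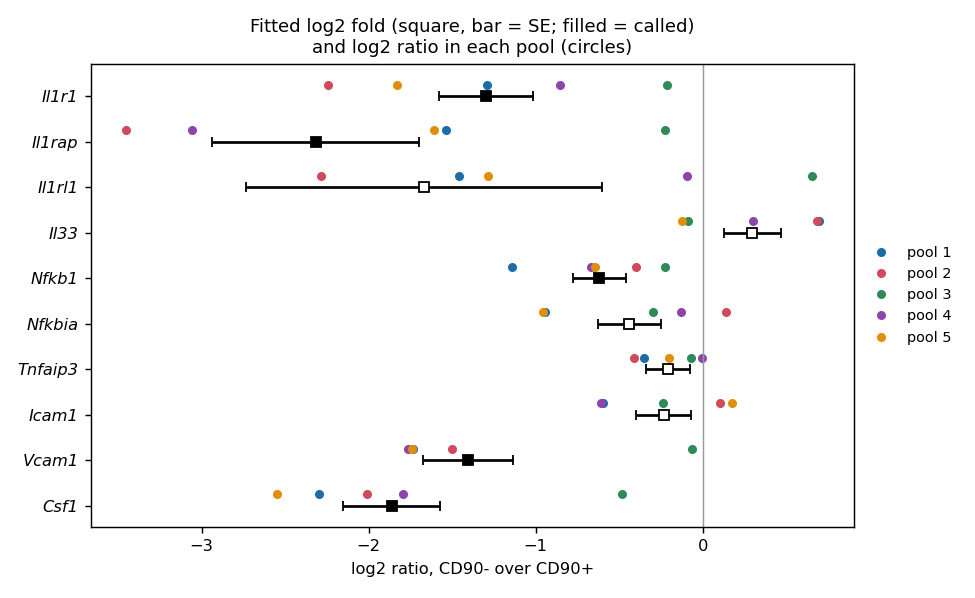
Log2 fold (CD90- over CD90+) of the 10 genes from edgeR as squares with bars of 1 SE, filled for the 5 genes called at an adjusted p under 0.05, and the log2 ratio of CPM + 0.5 within each pool as circles. The called genes run from -0.62 for Nfkb1 to -2.32 for Il1rap, Il33 (0.30) is the one gene above 0, and the pool 3 circles of the called genes lie nearest to 0.

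The members' order by level per length was read from TPM rescaled to nuclear protein-coding genes. In CD90- cells Il33 (382 ± 119 TPM) and Nfkbia (380 ± 131 TPM) were highest and did not differ beyond their spread, followed by Tnfaip3 at 208 ± 71.8 TPM. In CD90+ cells Nfkbia (455 ± 44.1 TPM) and Il33 (428 ± 60.7 TPM) were highest, likewise within their spread, and Tnfaip3 had 216 ± 71.2 TPM (SD, n = 5 each). Below them Icam1 had 120 ± 36.4 TPM in CD90- and 127 ± 8.28 TPM in CD90+ cells, and Nfkb1 112 ± 47.6 and 164 ± 58.2 TPM. Il1r1 had 107 ± 120 and 189 ± 107 TPM, Csf1 63.3 ± 45.7 and 143 ± 49.1 TPM, and Vcam1 45.9 ± 45.6 and 74.1 ± 33.5 TPM. These neighbours lay within their spread of each other in CD90- cells. Il1rl1 (9.25 ± 10.8 and 11.2 ± 3.20 TPM) and Il1rap (6.66 ± 9.60 and 14.0 ± 6.52 TPM) were the lowest in both fractions. In each of the 10 libraries Il33 lay above both chains of its own receptor on this scale.

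The 5 genes that fell shared 1 feature across pools: their gap was smallest in pool 3. Their median log2 ratio within a pool was -1.54, -2.01, -0.23, -1.76 and -1.74 in pools 1 to 5, on log2(CPM + 0.5). The fibroblast marker sum, mostly Col1a1, Col1a2 and Col3a1, had log2 ratios of -2.53, -2.82, -0.66, -2.0 and -3.36 in the same pools, also smallest in size in pool 3. Of the 9 fibroblast markers 8 were called lower and none higher, and of the 10 cancer epithelial markers 7 were called higher and none lower. The epithelial marker sum had log2 ratios of 2.65, 1.24, 1.99, 2.11 and 0.85. The transcript Il33-201 had log2 ratios of 1.95, 2.51, 1.72, 1.97 and 1.24, smallest in pool 5, as for the epithelial sum. The other pools did not follow the same order. Il33-201 had its largest ratio in pool 2, where the epithelial sum had its next smallest, and the epithelial sum had its largest in pool 1. The mitochondrial ribosomal RNA share was also lowest in pool 3 in both fractions, at 35.6% in CD90- and 10.5% in CD90+. The part of these differences in the 5 falls and in the Il33 transcripts was not tested.

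**Figure D4:**
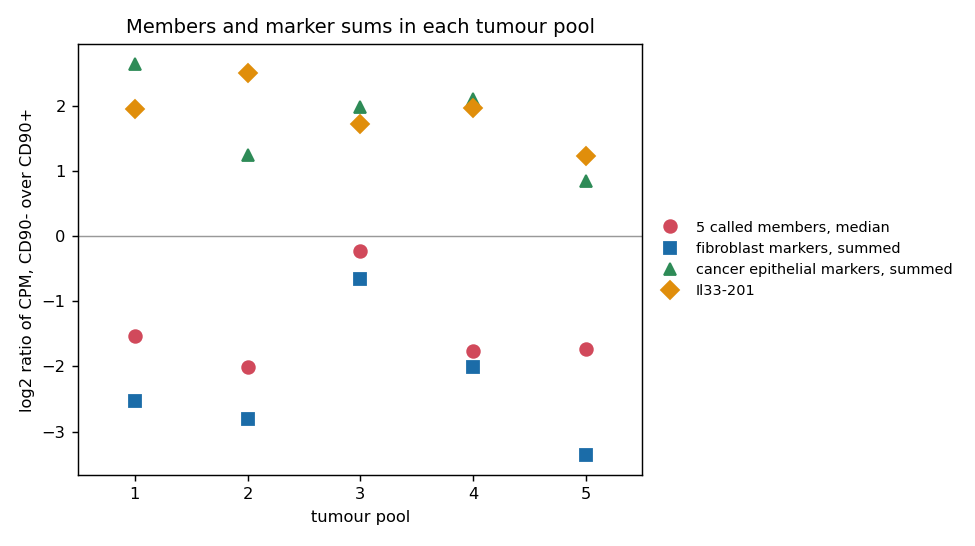
Within-pool log2 ratio (CD90- over CD90+) for pools 1 to 5, as the median of the 5 called genes, the summed fibroblast markers, the summed cancer epithelial markers and the transcript Il33-201. Pool 3 has the smallest gap for the 5 called genes (median -0.23) and for the fibroblast marker sum (-0.66).

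Markers of other cell types that could carry these genes were summed in the same way. The 11 macrophage markers summed to 24.5 to 60.6 CPM in CD90- and 10.7 to 21.5 CPM in CD90+ libraries, the 9 endothelial markers to 41.5 to 292 and 27.5 to 37.5 CPM, and both were higher in CD90- in 5 of 5 pools. The endothelial top value came from pool 2. Kdr made up most of the endothelial sum in every CD90+ library and went the other way. It had means of 18.3 CPM in CD90- and 27.6 CPM in CD90+ cells (log2 fold -0.70, edgeR adjusted p = 0.0780). Over the 8 endothelial markers tested, Kdr included, the median log2 fold was 3.26. The 6 neutrophil markers summed to 0.970 to 5.02 CPM in CD90- and 0.589 to 5.49 CPM in CD90+ libraries, the 6 T cell markers to 1.76 to 7.05 and 1.06 to 3.64 CPM with Cd8a at 0 in all, and the 4 B cell markers to 0 to 1.33 and 0 to 0.606 CPM. The 7 pericyte markers summed to 12.0 to 160 CPM in CD90- and 48.5 to 81.2 CPM in CD90+ libraries, with CD90- lower in 4 of 5 pools. Over the 6 pericyte markers tested, the log2 fold was -1.43 at the median, and no marker was called. The 5 mesothelial markers summed to 154 to 266 CPM in CD90- and 185 to 298 CPM in CD90+ libraries, lower in CD90- in 3 pools. Of these, Msln rose (log2 fold 1.40, edgeR adjusted p = 0.0077), and the other 4 had log2 folds of -2.04 (Upk3b), -1.96 (Wt1), -1.51 (Upk1b) and -1.32 (Lrrn4) and were not called. The part of these cell types in the results was not tested.

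Beyond the 10 genes, the wider pathway moved in both directions. Of 77 listed genes 68 were tested, and 6 were called higher and 4 lower, or 8.82% and 5.88%, close to the 5.83% and 7.05% over all genes. The median log2 fold was 0.09 over these 68 and 0.04 over all genes. In the list of other IL-1 family ligands, receptors and antagonists (17 genes, 11 tested) 3 were called higher and 1 lower (27.3% and 9.09%), with a median of 0.14. Il1rn, the IL-1 receptor antagonist, rose in CD90- cells, with 23.4 ± 19.2 CPM in CD90- and 5.00 ± 4.65 CPM in CD90+ cells (log2 fold 2.15, edgeR adjusted p = 0.0086), a call lost without the block (0.144) and without pools 4 and 5 (0.138). Sigirr, an inhibitory receptor of the family, rose to 9.57, 10.3, 3.31, 7.80 and 12.0 CPM in CD90- libraries, against 1.21, 2.18, 0.558, 2.27 and 1.47 CPM in CD90+ libraries (log2 fold 2.50, edgeR adjusted p = 0.0042). Its fractions did not overlap, as also held for Nfkbie and Pecam1 among the called genes of the pathway lists. Their margins were narrow: Nfkbie reached 18.1 CPM in CD90- and began at 18.6 CPM in CD90+ libraries. Pecam1 began at 5.27 CPM in CD90- and reached 5.11 CPM in CD90+ libraries. The share of all tested genes without overlap is not given here. Il1a, the ligand IL-1 alpha, rose to 3.72 ± 1.91 CPM in CD90-, against 0.585 ± 0.400 CPM in CD90+ cells (log2 fold 2.73, edgeR adjusted p = 0.0331), and this call was lost without pool 1, 3, 4 or 5 (0.148, 0.0639, 0.0805 and 0.0616) and without pools 4 and 5 (0.149). Both Il1a and Il1rn are known to be made by epithelial cells, and the cancer epithelial markers given above were higher in the same libraries. Their part in these rises was not tested. Il1rl2, the IL-36 receptor, fell to 6.15 ± 8.95 CPM in CD90-, against 18.2 ± 9.31 CPM in CD90+ cells (log2 fold -2.48, edgeR adjusted p = 0.0187), and lost the call without pool 1 (0.0769), pool 2 (0.0640), pools 4 and 5 (0.0809) or the block (0.320). The other 7 tested ligands, receptors and binding proteins did not pass. The ligands Il1b and Il18 had log2 folds of -0.26 and 1.353 (edgeR adjusted p = 0.818 and 0.269), and Il18bp, which neutralises IL-18, had 1.38 (0.384). The IL-18 receptor genes Il18r1 and Il18rap had log2 folds of -0.34 and 0.14 (edgeR adjusted p = 0.577 and 0.912), the decoy receptor Il1r2 had -1.03 (0.739) and Il1rapl1 -1.22 (0.561).

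Of 14 receptor-proximal signalling genes 1 was called lower and none higher, with a median log2 fold of -0.23. This is 7.14% called lower, close to the 7.05% over all genes. The gene called was Myd88, the adaptor of the IL-1 receptors, with 12.7 ± 7.52 CPM in CD90- and 23.7 ± 4.59 CPM in CD90+ cells (SD, n = 5; log2 fold -1.04, edgeR adjusted p = 0.0200). Of 24 further NF-kB pathway genes 2 were called lower (8.33%, against 7.05% over all genes) and none higher, with a median of 0.06. Nfkbie, the inhibitor IkB-epsilon, fell to 15.4 ± 3.68 CPM in CD90-, against 29.2 ± 9.59 CPM in CD90+ cells (log2 fold -0.91, edgeR adjusted p = 0.0361), and Tnfrsf1a, the TNF receptor, to 39.3 ± 20.6 against 67.9 ± 11.4 CPM (log2 fold -0.90, edgeR adjusted p = 0.0117). All 3 lost their calls without pool 1 (edgeR adjusted p 0.0663 for Myd88, 0.149 for Nfkbie and 0.0677 for Tnfrsf1a) and without the block (0.126, 0.0530 and 0.118). Without pool 2 or 4 the edgeR adjusted p was 0.0673 and 0.062 for Myd88 and 0.120 and 0.0828 for Nfkbie, which also lost its call with a length offset (0.0890). Without pools 4 and 5 it was 0.169 for Myd88, 0.0812 for Nfkbie and 0.130 for Tnfrsf1a. The other NF-kB subunit genes did not pass, with log2 folds of 0.31 for Rela, 0.38 for Nfkb2, 0.35 for Relb and 0.68 for Rel.

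Of 15 other adhesion genes 12 were tested, and 3 were called higher (25%, against 5.83% over all genes) and none lower, with a median log2 fold of 1.61. Alcam, an adhesion molecule of epithelial and other cells, had 87.7 ± 38.6 CPM in CD90- and 26.4 ± 29.8 CPM in CD90+ cells (log2 fold 2.29, edgeR adjusted p = 0.0112). Pecam1, which is also 1 of the endothelial markers given above, had 5.27, 31.6, 8.69, 8.33 and 10.0 CPM in CD90- libraries, against 2.28, 0.842, 0.799, 1.903 and 5.11 CPM in CD90+ libraries (log2 fold 2.52, edgeR adjusted p = 0.0351). Itgam, an integrin of myeloid cells, had 2.44, 7.21, 0.535, 38.1 and 14.5 CPM in CD90- libraries, against 0.466, 0.917, 0.679, 2.92 and 0.786 CPM in CD90+ libraries (log2 fold 2.68, edgeR adjusted p = 0.0268). Itgam was higher in CD90- in 4 pools and lower in pool 3. The cancer epithelial, endothelial and macrophage marker sums were higher in CD90- in 5 of 5 pools and the neutrophil sum in 2, and their part in these rises was not tested. All 3 lost their calls without pool 1 (edgeR adjusted p 0.0549 for Alcam, 0.0651 for Pecam1 and 0.0984 for Itgam). Pecam1 also lost it without pool 2, 3 or 4 (0.0547, 0.0859 and 0.0835) and Itgam without pool 2, 4 or 5 (0.0952, 0.151 and 0.0836), and Alcam and Itgam without the block (0.161 and 0.0664, all edgeR adjusted p). Itgam lost it with a length offset too (0.0967), and Pecam1 and Itgam without pools 4 and 5 (0.0914 and 0.391). None of the 7 genes of the colony-stimulating factors and their receptors other than Csf1 was called, with a median of 0.35.

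**Figure D5:**
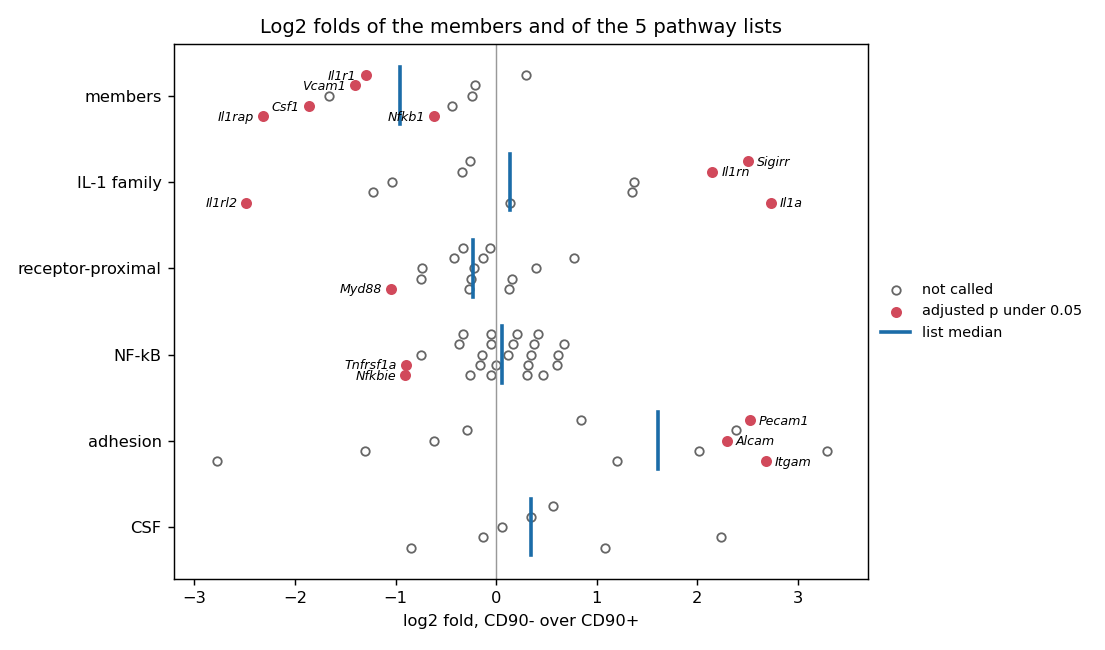
Log2 fold (CD90- over CD90+) from edgeR of each tested gene in the 5 pathway lists and of the 10 genes (top row, members), with filled, named points for an adjusted p under 0.05 and a vertical line at each list's median. In the pathway lists 6 genes are called higher and 4 lower, while among the 10 genes 5 are called lower and none higher.

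The genes whose levels across the 10 libraries were most like those of the 5 genes that fell were found by the root-mean-square difference of centred log2 CPM, among 6830 genes whose log2 CPM averaged 3 or more. For Il1r1 the nearest was Dab2, an endocytic adaptor, at 0.205, followed by Acsl4, a fatty acid-activating enzyme, at 0.226 and Adamts3, a procollagen protease, at 0.280. For Csf1 the nearest was Timp3, an inhibitor of metalloproteases, at 0.192, followed by Adgra2 at 0.228 and Nxn at 0.231. For Vcam1 they were Pappa, a protease of insulin-like growth factor binding proteins, at 0.277, Acsl4 at 0.284 and the metallothionein gene Mt2 at 0.310. For Nfkb1 they were Sec23ip at 0.170, Tm7sf3 at 0.181 and Dynlrb1 at 0.236, and for Il1rap they included Lrrn2 at 0.642 and Ccn4 at 0.702. Acsl4 was thus near both Il1r1 and Vcam1, and the distances were largest for Il1rap among these 5 genes.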

How the data were processed

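The authors deposited estimated counts per transcript for each of the 10 libraries, with TPM and effective lengths, made with Salmon 1.9.0 on GRCm39 per the submitters' processing notes. No label or header used here names the annotation release or the strand and bias settings. Libraries came from 0.1 to 1.2 ng of RNA (RIN 3.1 to 8.7) with a stranded low-input kit per the labels' protocols, and PCR without molecular identifiers makes reads non-independent.

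Transcripts were matched to GENCODE M21 (GRCm38) for gene names and transcript structures (133666 of 144584, or 92.4%). The unmatched ones held 3.63% to 12.1% of a library's counts. Counts were summed per gene and rounded. The quasi-likelihood test of edgeR 4.0.16 was run in R 4.3.3, with filterByExpr, TMM scaling, robust estimation and the pool as block, with Benjamini-Hochberg adjustment over 15378 genes and a threshold of 0.05. The deposited TPM values were rescaled to nuclear protein-coding genes and used for levels only. The pairing rests on the shared animal numbers in the titles. As a check, deviations from the group means were correlated between the fractions within each pool, giving 0.06, 0.00, 0.46, 0.03 and 0.19. Nothing states that the pools are independent experiments, so p-values measure the spread between these samples.

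The genes and lists were chosen with earlier results of these data known. The rule was to name all 10 genes, every called gene of a pathway list, the tested IL-1 family genes, and the 3 genes most like each called member. Csf1r, Rela, Nfkb2, Relb and Rel are named in addition, after their values were seen. Some genes are not reported here. Alternatives used DESeq2 1.42.0, limma-voom (limma 3.58.1), RLE size factors, looser and stricter filters, an effective length offset, fewer gene classes, a mitochondrial rRNA covariate, no block, or fewer pools. The fit was tested on simulated counts.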

Additional observations from a re-analysis of the deposited data

Results flagged for a closer look

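Among 24 groups of 5 libraries examined for a library far from the others, 3 were flagged, and chance flags about 1 in 20. All 3 flags fell on the CD90- library of pool 3. Il1r1 had 253.403 CPM there, against a nearest CD90- value of 69.1 CPM, and the gap took 0.778 of the group's whole range. Il1rap had 15.2845 CPM, against a nearest value of 2.03 CPM (0.892 of the range). Vcam1 had 65.0979 CPM, against a nearest value of 17.8 CPM (0.796 of the range). In this library the mitochondrial ribosomal RNA share was 35.6%, the lowest of the CD90- libraries. Without pool 3 the edgeR log2 folds were -1.57 for Il1r1, -2.93 for Il1rap and -1.73 for Vcam1, so the falls were larger without it, and 5 of the 10 genes were still called lower. What sets this library apart was not tested.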

How the results depend on the processing

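The 5 called genes were lower in 5 of 5 pools, as was Tnfaip3, which was not called. The number called depended on the samples and the block. With 1 pool left out, 1 to 5 of the 10 genes were called lower (1 without pool 1) and 0 higher, over all genes 308 to 820 were called higher and 367 to 1199 lower, and in the pathway lists 2 to 5 higher and 0 to 5 lower. With no replicate block, which ignores the pairing, 421 genes were called higher and 544 lower, 0 of the 10 genes lower, and 3 pathway genes higher and 0 lower. Without pools 4 and 5 these counts were 357, 184, 0, 2 and 0. DESeq2 called 1750 genes higher and 1871 lower. A length offset left 3 of the 10 genes called lower. With mitochondrial rRNA as a covariate 0 genes, 0 of the 10 and 0 pathway genes were called in either direction. Signs turned with no block for Il1b (0.00049) and Il18rap (-0.26), with limma-voom for Il18rap (-0.31), without pools 4 and 5 for Il18rap (-0.53), with the length offset for Il33 (-0.29) and Il1b (0.16), and with the covariate for Il33 (-0.20), Il1rap (0.78), Icam1 (0.44) and Il1r2 (1.36). With 1 pool left out the log2 fold ran between -0.43 and 0.58 for Il18rap and between -0.60 and 0.10 for Il1b, and the difference in the Icam1-201 share between -0.99 and 2.52 percentage points. The cause was not tested. With 4 pools left, the exact test of shares cannot go below 0.125. Counts were lowest for Il1rl1 (0 to 229 per library) and Il1rap (4 to 1193) among the 10 genes.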
